A study of Mus musculus with 74 samples.

Results

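The histone mark H3K9me3 (trimethylated lysine 9 of histone H3) was mapped in mouse donor cells and embryos, and 14185 stretches of the genome carried a peak in every one of the 10 deposited peak lists. To find these ubiquitous windows, the autosomes were cut into 2462755 windows of 1 kb (1000 bases, counted from the start of each chromosome), and a window was called marked in a list when peaks covered at least 500 of its bases. The ubiquitous windows, those marked in all 10 lists, were therefore selected by the measured peaks. They are 0.576% of the autosomal windows. Their marks and fold values are given as a description, without a test.

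Cumulus cells (CC), the donors of the nuclei, gave 1 list, cloned embryos from somatic cell nuclear transfer (SCNT) gave 8, and fertilized zygotes at pronuclear stage 5 (PN5) gave 1. The cloned embryos were collected 6 h and 14 h after activation (6 hpa and 14 hpa), with 2, with 4 and with 8 cells, as morulae, and as both parts of the blastocyst, its inner cell mass (ICM) and its trophectoderm (TE). Oocytes came from B6D2F1 (BDF1) females, the mice from which the labels also take the cumulus cells, and activation used SrCl2 with cytochalasin B in Ca2+-free medium, whereas the fertilized zygotes came from a cross of C57BL/6 females with C57BL/6 males. According to the methods of the study the PN5 reads came from an earlier publication, so type of embryo, strain and study cannot be told apart in a comparison with PN5. A list pools all precipitated libraries of its group, by the labels 2 (ICM, TE, PN5), 3 (4-cell), 4 (CC, 14 hpa), 5 (6 hpa), 6 (2-cell, morula) or 7 (8-cell) of them, so the values carry no error between replicates. The 95% intervals (Wilson, binomial) count windows, cover counting error only and treat neighbouring windows as independent, and the spread over the 19 autosomes is given where it was computed. The lists hold no read counts, and by the study's methods every group was reduced to an equal number of reads.

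As background, H3K9me3 marks heterochromatin, the closed part of the genome. In mouse embryos and embryonic stem cells the methyltransferase SETDB1 and its partner TRIM28 place it on endogenous retroviruses, which are old viral insertions with a long terminal repeat (LTR) at each end, and KRAB zinc finger proteins guide them there. The mark also sits at imprinting control regions, on the parental copy that carries DNA methylation. A retrovirus starts to copy itself from a host tRNA that binds a primer site next to its LTR, so the letters of that site show which tRNA an insertion used. IAP elements use tRNA-Phe, murine leukemia viruses tRNA-Pro, and MERV-L elements tRNA-Leu.

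Short sequences were repeated from window to window. In 76.8% of the ubiquitous windows, at least 50% of the 24-base words were also found in some other ubiquitous window. In 53.8% (interval 53.0 to 54.6%), at least 50% of the words were each found in 50 or more ubiquitous windows. A set of 8 words was chosen one after the other. Each was held by more of the windows not yet accounted for than any other word. Together these words were found in 6873 windows, 48.5% of all. They are shown in capitals in the window of highest lowest fold that holds each, with 28 bases on each side (mm10, RefSeq GRCm38.p6), because they show sequence that many of these windows have in common. None of the 8 stretches touched an annotated exon. Of these stretches 4 were intergenic, from a run of 7 ubiquitous windows at chr7:48402001-48409000, and the others lay in introns of Casp8, Spon1 and Fam110b.
Word 1, chr7:48403075-48403154, minus strand: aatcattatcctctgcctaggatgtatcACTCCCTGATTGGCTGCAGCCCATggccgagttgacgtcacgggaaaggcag
Word 2, chr1:58817004-58817083, minus strand: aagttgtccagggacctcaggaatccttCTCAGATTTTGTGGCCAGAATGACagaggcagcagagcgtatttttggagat
Word 3, chr7:48403943-48404022, minus strand: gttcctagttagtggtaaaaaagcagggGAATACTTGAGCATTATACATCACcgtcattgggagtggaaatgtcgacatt
Word 4, chr1:58818030-58818109, plus strand: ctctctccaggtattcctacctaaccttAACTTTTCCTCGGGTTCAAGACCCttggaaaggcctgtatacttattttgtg
Word 5, chr7:113944842-113944921, plus strand: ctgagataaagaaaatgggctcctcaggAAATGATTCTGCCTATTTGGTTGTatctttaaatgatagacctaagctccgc
Word 6, chr4:5762448-5762527, minus strand: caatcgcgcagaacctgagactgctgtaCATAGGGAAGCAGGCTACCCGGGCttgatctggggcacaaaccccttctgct
Word 7, chr7:48403389-48403468, plus strand: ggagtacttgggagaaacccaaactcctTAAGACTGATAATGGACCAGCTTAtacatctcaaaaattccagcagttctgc
Word 8, chr7:48404898-48404977, minus strand: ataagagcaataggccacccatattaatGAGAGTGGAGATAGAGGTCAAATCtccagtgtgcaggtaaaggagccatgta

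The words were chosen on the ubiquitous windows, so their presence there is no finding. The ubiquitous shares below count those same windows, and so follow in part from that choice. Of all autosomal windows that hold a word, the shares that were ubiquitous or unmarked differed from word to word. Word 2 was found in 1698 autosomal windows, of which 1289 (75.9%) were ubiquitous and only 1 was without a mark in any list. Word 5 was found in 1171 windows, of which 741 were ubiquitous and 0 unmarked, which allows a share of up to 0.256%. Word 3 was found in 1640 windows, 68.9% of them ubiquitous, and word 7 in 1523, 63.0% of them ubiquitous. Words 4 and 8 followed, with 54.3% of 1817 windows and 51.5% of 2457 windows. Word 1 was the commonest in the ubiquitous set (1736 windows), but of all 5475 windows that hold it 31.7% were ubiquitous and 8.18% were marked in no list. Word 6 was found in 3139 windows, of which 17.7% were ubiquitous and 6.85% unmarked.

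Word 6 lay apart from the other 7 words. Of the ubiquitous windows with word 1, 56.0% lay within 5 windows of a ubiquitous window with word 2, 50.3% within that distance of word 3 and 63.8% within that distance of word 8. For word 3 and word 7 the share was 68.8%. Word 6 was within 5 windows of word 1 for 0.461% of the windows with word 1. Windows with word 6 also had another base composition, with a mean GC of 57.6% and 44.8 CpG per window, against 44.1% to 50.9% GC and 19.2 to 33.4 CpG for the other 7 words.

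The sites that a tRNA primer would bind were then searched for, a search added after the words had been seen. The letters were read from the tRNA genes and not from the peaks. For each of 403 annotated tRNA genes the last 15 bases were joined to CCA, which is added to every mature tRNA, and the reverse complement was taken as its site. This gave 127 different sites of 18 bases, which were looked for on both strands. Any of these sites was found in 845 ubiquitous windows (5.96%) and in 143 of 1964291 windows without a mark (0.00728%). The share rose with every further list, through 0.0336% of windows marked in 1 list to 0.522% at 5 lists and 4.75% at 9 lists. For 5 of the tRNAs, the site found most often in ubiquitous windows is shown in capitals in its window of highest lowest fold. It is preceded by 40 bases, where an LTR would end, and followed by 22.
tRNA-Phe, chr7:48405446-48405525, plus strand: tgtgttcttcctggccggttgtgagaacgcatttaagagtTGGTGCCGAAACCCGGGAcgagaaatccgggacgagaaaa
tRNA-Leu, chr4:148245597-148245676, plus strand: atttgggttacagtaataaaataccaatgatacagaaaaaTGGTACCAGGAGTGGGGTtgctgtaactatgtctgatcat
tRNA-Gly, chr15:32870156-32870235, plus strand: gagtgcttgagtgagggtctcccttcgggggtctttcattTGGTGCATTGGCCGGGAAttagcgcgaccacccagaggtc
tRNA-Lys, chr13:22812578-22812657, minus strand: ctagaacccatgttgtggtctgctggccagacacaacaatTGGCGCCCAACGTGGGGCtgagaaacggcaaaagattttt
tRNA-Thr, chr17:22137474-22137553, minus strand: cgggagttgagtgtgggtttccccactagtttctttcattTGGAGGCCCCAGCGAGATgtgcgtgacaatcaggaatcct

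The tRNA-Phe stretch lay in the chr7:48402001-48409000 run that also holds words 1, 3, 7 and 8. The tRNA-Leu stretch was in an intron of Disp3. The other 3 were intergenic, 50488 bp from Sdc2 (tRNA-Gly), 2896 bp from Vmn1r209 (tRNA-Lys) and 6806 bp from Zfp947 (tRNA-Thr). A match of letters is a description, and the annotation used here names no retroviral family.

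Sites for tRNA-Phe, the primer of IAP elements, were the most numerous. The TGGTGCCGAAACCCGGGA form, whose letters also fit an annotated tRNA-Ser gene, was found in 970 windows (0.0394% of all autosomal windows), of which 475 were ubiquitous (49%, interval 45.8 to 52.1%) and 99.6% were marked in at least 1 list. The TGGTGCTGAAACCCGGGA form was found in 374 windows (0.0152% of all autosomal windows), of which 96 were ubiquitous (25.7%). With all tRNA-Phe forms together, 1341 windows held a site, and the share of them that was marked was 88.1% (CC), 72.1% (6 hpa), 97.5% (14 hpa), 93.8% (2-cell), 84.6% (4-cell), 83.2% (8-cell), 92.7% (morula), 93.1% (ICM), 91.8% (TE) and 62.6% (PN5). The lowest shares were thus those of PN5 and 6 hpa. Among all autosomal windows the share marked lay between 4.51% (2-cell) and 8.03% (CC).

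Sites for tRNA-Pro, the primer of murine leukemia viruses, were fewer but more often ubiquitous. They were found in 139 windows, of which 91 were ubiquitous (65.5%, interval 57.2 to 72.9%). Of these windows 99.3% (CC), 92.8% (6 hpa), 98.6% (14 hpa), 87.8% (2-cell), 85.6% (4-cell), 83.5% (8-cell), 95% (morula), 99.3% (ICM and also TE) and 82.0% (PN5) were marked. This is the highest PN5 share after that of the tRNA-Thr site (86.4% of 44 windows).

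Sites for tRNA-Leu, the primer of MERV-L elements, stood apart. They were found in 907 windows, but only 66 of these were ubiquitous (7.28%, interval 5.76 to 9.15%). The share marked was 59.6% (CC), 35.2% (6 hpa), 64.6% (14 hpa), 49.1% (2-cell), 75.4% (4-cell), 65.2% (8-cell), 90.1% (morula), 87.8% (ICM), 84.3% (TE) and 17.2% (PN5). With all forms together, the morula and blastocyst lists marked tRNA-Leu windows nearly as often as tRNA-Phe windows. A ubiquitous mark was found on 7.28% of the tRNA-Leu windows and 42.4% of the tRNA-Phe windows, a difference that carries no test. Sites for tRNA-Gly (200 windows) were ubiquitous in 20.0% of cases, those for tRNA-Lys (163 windows) in 25.2%, those for tRNA-Gln (137 windows) in 15.3%, and those for tRNA-Thr in 40.9%.

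**Figure D1:**
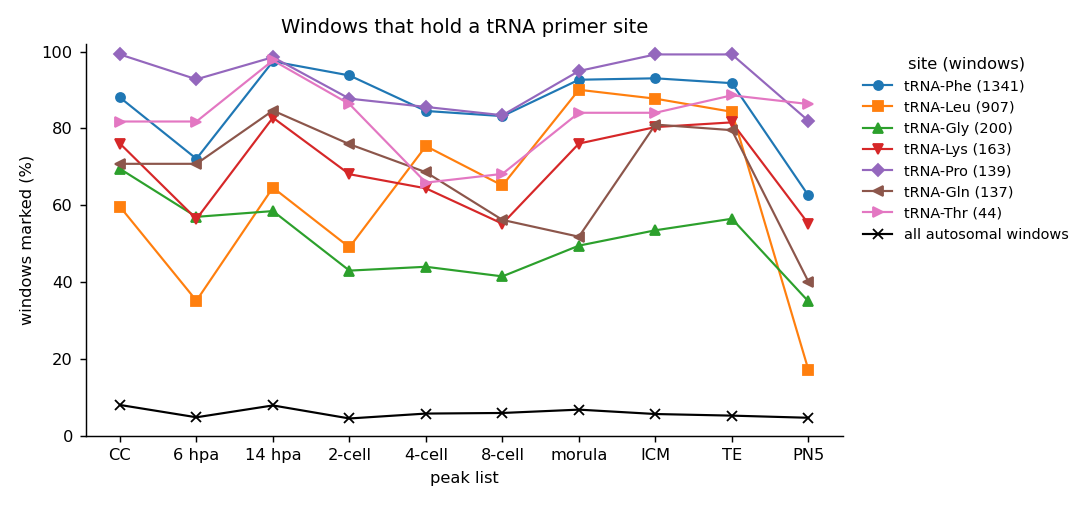
Percent of the windows holding a primer site that were marked in each peak list (x axis), with a line for each tRNA (number of windows in brackets) and the share of all autosomal windows in black. The tRNA-Phe line runs from 62.6% (PN5) to 97.5% (14 hpa) and the tRNA-Pro line from 82.0% to 99.3%, whereas the tRNA-Leu line runs from 17.2% in PN5 to 90.1% in the morula.

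Number of lists and sequence moved together. The count of windows fell from 208198 marked in 1 list to 13095 marked in exactly 9 lists and then rose to 14185 at all 10. Soft-masked bases, which the reference genome writes in lower case because they match known repeats or simple sequence, made up 30.1% of the windows without a mark, 48.9% at 5 lists, 69.9% at 9 lists and 81.8% of the ubiquitous windows. Of the latter, 44.8% were soft-masked from end to end, and 385 windows (2.71%) were soft-masked for less than 10%. Mean GC rose from 41.4% without a mark to 47.6% at 9 lists and 48.5% at 10. The number of CpG per window rose from 8.08 to 18.3 and 24. Only 7 ubiquitous windows had a GC below 35%, and 66 had one from 35% to 40%.

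These differences had the same direction on each of the 19 autosomes. Mean GC of the ubiquitous windows exceeded that of windows marked in 1 to 9 lists by 4.56 percentage points, and the autosomes lay between 3.47 and 6.47 points (SD 0.703, 19 of 19 in that direction). Against windows marked in exactly 9 lists the difference was 0.910 points, with autosomes from 0.314 to 1.71. For CpG the excess over windows in exactly 9 lists was 5.69 per window (autosomes 4.51 to 7.08), and for soft-masked bases it was 11.8 points (autosomes 5.13 to 16.8). The share of ubiquitous windows was highest at an intermediate CpG content. Of windows with 30 to 49 CpG, 14.8% were ubiquitous, against 5.04% with 20 to 29 CpG, 0.0594% with 0 to 4 CpG and 2.64% with 50 or more.

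**Figure D2:**
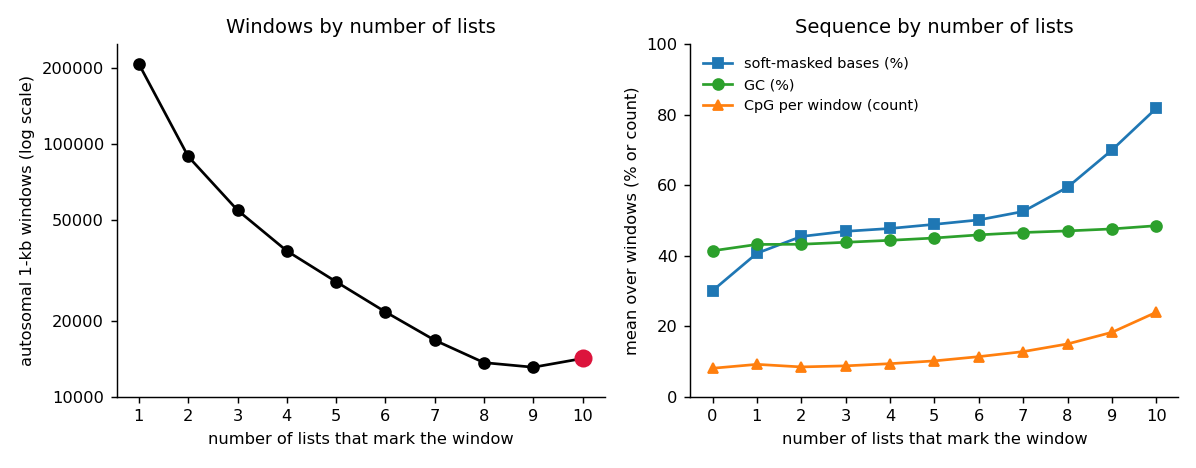
Left, autosomal 1-kb windows (log scale) by the number of lists that mark them, with the 14185 ubiquitous windows in red. Right, mean soft-masked share and GC (%) and mean CpG count per window for the same classes, where the soft-masked share climbs from 30.1% to 81.8%.

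Much of this sequence occurs more than once in the genome. Of the 100-base stretches of ubiquitous windows, 58.1% had another exact copy and 42.8% had over 10 copies. The shares with another copy were 40.7% for windows marked in exactly 9 lists, 15.6% for a systematic subset of windows in 1 to 9 lists and 2.90% for a subset of windows without a mark. The rule for placing reads that fit several positions is not given in the sources used here, and its part in the ubiquitous marks was not tested. In 3058 ubiquitous windows every stretch was copied, and in 2597 (18.3%) none was.

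**Figure D3:**
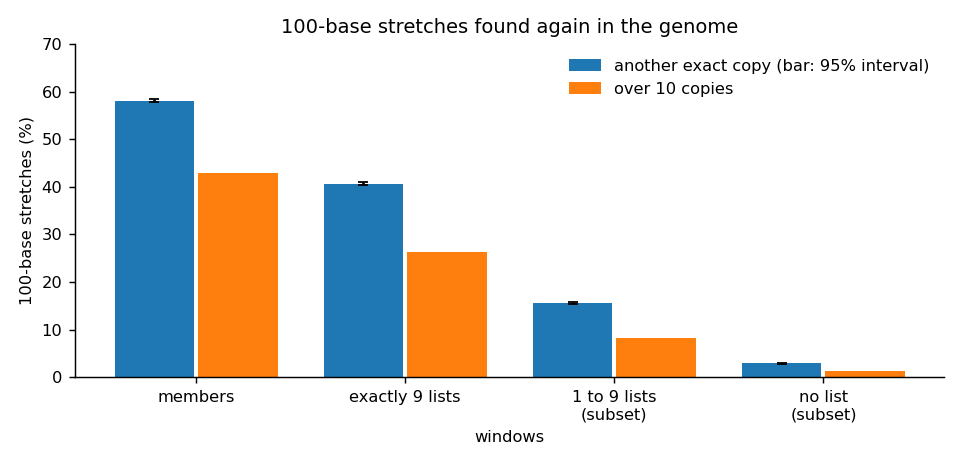
Percent of 100-base stretches with another exact copy in the genome (blue, with Wilson 95% intervals as bars) and with over 10 copies (orange), for ubiquitous windows, windows in exactly 9 lists and subsets of windows in 1 to 9 lists or in none. Ubiquitous windows stand at 58.1% and 42.8%, unmarked windows at 2.90% and 1.39%.

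The 2597 windows without a copied stretch were of another kind. Their mean GC was 48.3%, against 48.0% for the windows copied throughout, but they held 14.3 CpG per window in place of 25.7 and were soft-masked for 47.0% in place of 96.1%. A primer site was present in 3.81% of them and in 0.948% of the windows copied throughout, and any of the 8 words in 1.58% and 79.8%. Their median fold enrichment was 3.20 (CC), 3.12 (6 hpa), 3.47 (14 hpa), 3.76 (2-cell), 3.48 (4-cell), 3.16 (8-cell), 3.71 (morula), 3.797 (ICM), 3.95 (TE) and 3.07 (PN5). The windows copied throughout had 3.43, 3.24, 3.77, 4.14, 3.96, 3.68, 4.82, 5.51, 4.48 and 3.11 in the same order. The gap between both groups was thus widest in ICM and narrowest in PN5.

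Fold enrichment, the ratio of precipitate to input that the authors' peak caller gives each peak, was averaged over the bases of a window and is a description here, since the same peaks chose the windows. The median over ubiquitous windows was 3.36 (CC), 3.21 (6 hpa), 3.72 (14 hpa), 4.08 (2-cell), 3.77 (4-cell), 3.47 (8-cell), 4.39 (morula), 4.81 (ICM), 4.31 (TE) and 3.11 (PN5). Other marked windows of the same lists had medians from 2.87 (6 hpa) to 3.43 (ICM and TE). The ratio of these medians was 1.40 in ICM, 1.36 in the morula and 1.06 in PN5. The fold was highest in ICM for 55.2% of the ubiquitous windows, and it was lowest in PN5 for 40.6% and at 6 hpa for 28.9%. Folds of different lists depend on each list's own input and signal, so these orders describe the lists as well as the windows.

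**Figure D4:**
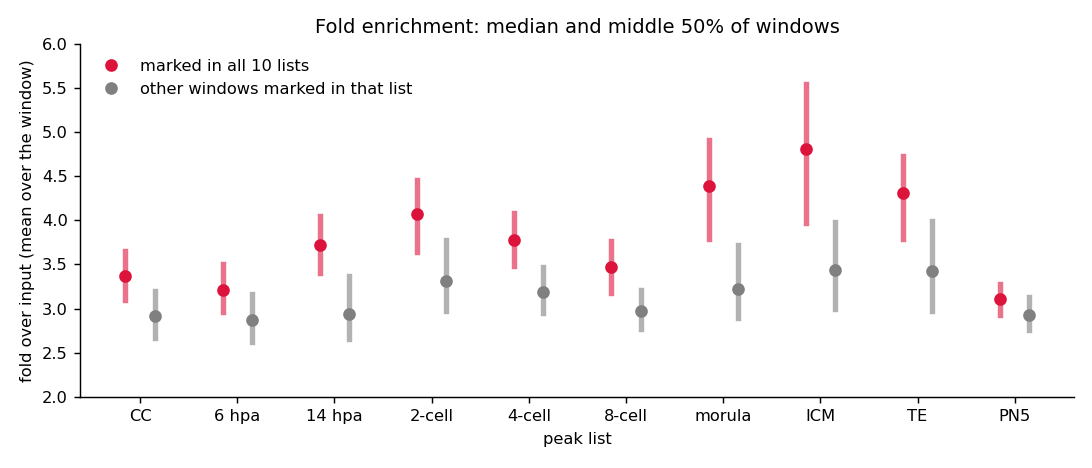
Fold over input in each peak list, as median (point) and middle 50% (bar) of the ubiquitous windows (red) and of the other windows marked in that list (grey). Red medians lie above grey ones in each list, by the most in ICM (4.81 against 3.43) and by the least in PN5 (3.11 against 2.93).

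Across the 14185 windows the order of folds was most alike between morula and ICM (Spearman's rho 0.781) and between ICM and TE (0.691). It was least alike between 6 hpa and the morula (0.0969). These correlations are across windows that share neighbours, copies and libraries, and they carry no test.

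Ubiquitous windows lay in wider peaks. The median width of the peak over them was 5650 bp (CC), 2895 bp (6 hpa), 6386 bp (14 hpa), 4736 bp (2-cell), 4249 bp (4-cell), 3620 bp (8-cell), 5772 bp (morula), 6485 bp (ICM), 5420 bp (TE) and 3124 bp (PN5). Over other marked windows it was between 1495 bp (6 hpa) and 3031 bp (CC). The 14185 windows formed 8553 runs of adjacent windows, 5154 of them a lone window and the longest of 10 windows, and 35.5% of the windows were in runs of at least 3.

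Beside the runs, the lists parted. At 1 kb from the edge of a run, where by construction at least 1 list has no mark, 75.7% of the windows were marked at 14 hpa, 72.1% in ICM and 70.4% in the morula, but 39.3% in PN5 and 35.6% at 6 hpa. At 5 kb the shares were 34.9% (CC), 33.0% (14 hpa), 21.1% (6 hpa) and 17.3% (PN5), and at 20 kb they were 21.1% in CC and 7.36% in PN5. The share over all autosomal windows was 8.03% in CC and 4.69% in PN5, so at 20 kb each of these lists still exceeded its own level.

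**Figure D5:**
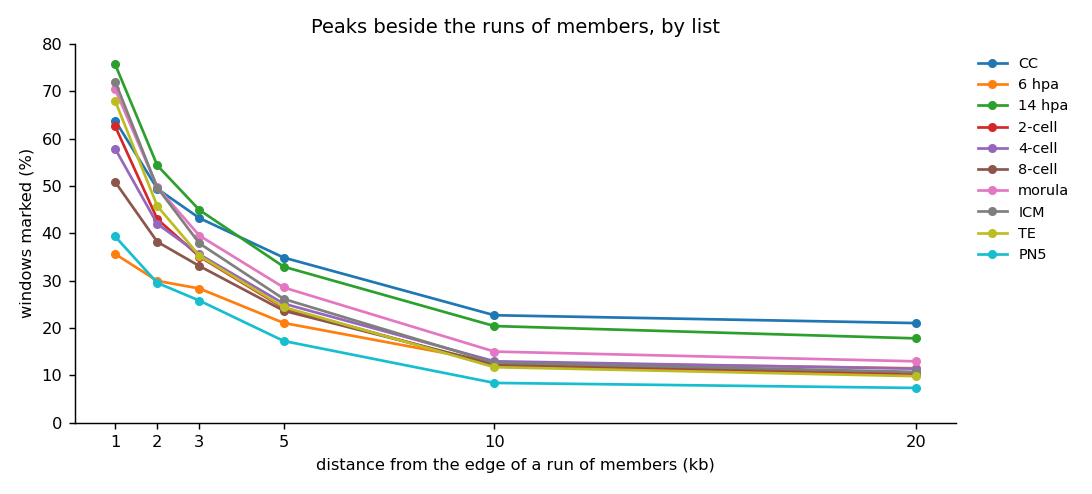
Percent of windows marked in each list (one line per list) at 1 to 20 kb from the edge of a run of ubiquitous windows. PN5 falls from 39.3% to 7.36% and CC from 63.8% to 21.1%.

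Windows that missed the rule by 1 list missed it more often in PN5 than in any other list. Of the 13095 windows marked in exactly 9 lists, 6065 (46.3%) had no mark in PN5, 2494 (19%) had none at 6 hpa and 1437 (11%) had none in CC, whereas 74 had none at 14 hpa. In the PN5 case 51.8% had no peak base at all. Windows that were unmarked at 6 hpa only were soft-masked for 80.8%, close to the 81.8% of the ubiquitous ones, and had a mean GC of 45.1%. On the other side of the threshold, 3782 windows had a lowest cover of at least 400 but under 500 bases over the 10 lists, with a median lowest fold of 2.76. Just inside it, 2748 had at least 500 but under 600 bases, with a median lowest fold of 2.80. In 5271 windows all 1000 bases were covered in each list.

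The 5 longest runs were of several kinds. The longest, chr3:6298001-6308000, was intergenic, 307417 bp from 1700008P02Rik, with a GC of 61.9%, 56.2 CpG per window and 99.7% soft-masked. Its mean fold was 3.26 (CC), 4.03 (6 hpa), 3.85 (14 hpa), 3.45 (2-cell), 3.70 (4-cell), 3.14 (8-cell), 3.62 (morula), 5.28 (ICM), 4.62 (TE) and 3.16 (PN5). A run of 8 windows, chr1:72126001-72134000, was also intergenic, 25441 bp from Mreg, with a GC of 45.5% and 20.4 CpG per window. Central bases of both runs are shown for their contrast in composition. In the first, capitals mark a 12-base word that the 1-kb window holds 5 times, and in the second they mark CpG.
Longest run, chr3:6303411-6303590, plus strand: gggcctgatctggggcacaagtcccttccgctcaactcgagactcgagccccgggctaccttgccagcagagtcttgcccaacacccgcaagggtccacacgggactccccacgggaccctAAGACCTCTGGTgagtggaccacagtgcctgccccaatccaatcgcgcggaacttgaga
Run near Mreg, chr1:72130411-72130590, plus strand: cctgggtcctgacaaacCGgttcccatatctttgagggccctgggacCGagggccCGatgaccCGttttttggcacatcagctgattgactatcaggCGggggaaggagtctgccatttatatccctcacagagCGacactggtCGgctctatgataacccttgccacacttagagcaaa

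The other 3 runs were chr18:74255001-74265000, of the same length as the longest, chr3:93204001-93213000 and chr2:36349001-36357000. The first of these lay 2604 bp from Mbd1, which encodes a protein that binds methylated CpG. The run of 9 windows on chromosome 3 lay in Flg2, a member of the filaggrin family of skin proteins, and all 9000 of its bases were annotated as exonic and 107 as coding. The run on chromosome 2 was intergenic, 16518 bp from Olfr338. It and the run near Mreg are the first by position of 8 runs of 8 windows.

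Repetition inside a window was rare. Less than 50% of the 24-base words were distinct in 243 ubiquitous windows (1.71%, interval 1.51 to 1.94%), compared with 1.34% of the windows in exactly 9 lists, 0.145% of the subset marked in 1 to 9 lists and 0.0263% of the unmarked subset. These 243 windows had a mean GC of 59.9%, and 30.04% of them lay in protein-coding genes.

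The 5 windows of highest lowest fold, at most 1 per run, were rich in GC and almost free of CpG. This does not describe the ubiquitous windows as a whole. Among all of them, the median fold in ICM was 3.64 with 0 to 4 CpG and 5.31 with 30 to 49 CpG. The first of the 5, chr2:51946001-51947000, lay 1486 bp from Nmi and held 2 CpG at 61.2% GC. Its fold was 4.15 (CC), 5.92 (6 hpa), 4.29 (14 hpa), 5.20 (2-cell), 12.4 (4-cell), 4.46 (8-cell), 6.13 (morula), 6.66 (ICM), 4.99 (TE) and 5.31 (PN5). The second, chr8:25261001-25262000, lay 4412 bp from Tacc1 and held 5 CpG, and its fold was between 4.10 (TE) and 7.45 (4-cell). Both are shown because they are made of short repeated units, with the commonest 12-base word of the window, present 40 and 34 times, in capitals.
Window near Nmi, chr2:51946411-51946590, plus strand: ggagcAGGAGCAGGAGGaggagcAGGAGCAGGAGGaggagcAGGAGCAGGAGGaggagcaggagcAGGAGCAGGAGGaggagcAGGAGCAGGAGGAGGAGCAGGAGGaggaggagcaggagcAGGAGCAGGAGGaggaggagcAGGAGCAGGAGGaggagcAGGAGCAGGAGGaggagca
Window near Tacc1, chr8:25261411-25261590, plus strand: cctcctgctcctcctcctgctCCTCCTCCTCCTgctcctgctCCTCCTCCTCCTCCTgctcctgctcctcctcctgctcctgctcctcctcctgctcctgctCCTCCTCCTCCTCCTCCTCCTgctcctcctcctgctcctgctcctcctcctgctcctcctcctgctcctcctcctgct

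The third, chr17:7911001-7912000, lay in E430024P14Rik, annotated as antisense, with a fold from 4.07 (8-cell) to 6.70 (ICM). The fourth was chr18:50503001-50504000, 59876 bp from Pudp, and the fifth chr12:91331001-91332000, in an intron of Cep128, a gene named for the centrosome. All 5 had a GC between 59.4% and 61.6% and 1 to 5 CpG.

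Ubiquitous windows lay less often in genes than other windows. The midpoint lay in a protein-coding gene for 18.2% of them (interval 17.6 to 18.8%), against 20.0% of the windows in exactly 9 lists, 29.8% in 1 to 9 lists and 40.3% of all autosomal windows. It lay in an intron for 2462 windows, in coding sequence for 42 (0.296%, against 1.42% of all autosomal windows) and in another exon of a protein-coding gene for 78. No annotated gene of any kind was present for 73.6%. Within 1 kb of the start of a protein-coding gene lay 29 windows (0.204%), against 1.59% of all autosomal windows. Over 100 kb from such a start lay 44.6% (interval 43.8 to 45.4%) of the ubiquitous windows and 44.5% of all windows.

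Along the chromosomes, a larger share of all windows was ubiquitous at the ends. With each chromosome cut into 10 parts of equal length, numbered from the centromeric end, 0.791% and 0.771% of the windows were ubiquitous in parts 1 and 2, between 0.456% and 0.559% in parts 3 to 9, and 0.677% in part 10. Of windows marked in any list, 4.08% and 3.33% were ubiquitous in parts 1 and 2. In parts 3 to 9 this was 2.12% to 3.07%, and in part 10 it was 2.57%, inside that range. By autosome the share of all windows was 0.573% ± 0.101 (SD, n = 19), from 0.383% on chromosome 19 to 0.833% on chromosome 7. Of windows marked in any list, 2.39% were ubiquitous on chromosome 7. The autosomes lay between 2.35% (chromosome 11) and 3.84% (chromosome 16) by this measure.

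At the level of genes, 1000 of 20807 autosomal protein-coding genes (4.81%) had the midpoint of a ubiquitous window in their body. The most windows were in Gm20388, a gene model that spans 4435 windows on chromosome 8, with 46. D10Wsu102e had 24 windows in 129, each touching annotated exon bases. C130026I21Rik had 19, and the overlapping models Gm37013, Gm37388 and Gm42416 of the protocadherin region on chromosome 18 had 19 windows in common. Gpc6, which encodes a glypican of the cell surface, had 17. Flg2 had 15 in 24 windows (62.5%). Sdk1, which encodes an adhesion molecule of neurons, had 13, and Btbd3 and Gm10251 had 12 each. In Gpc6, Btbd3 and Gm10251 together, no ubiquitous window touched an exon base.

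C130026I21Rik differed in its order of folds. Its median was 3.39 (CC), 3.01 (6 hpa), 2.86 (14 hpa), 3.22 (2-cell), 2.95 (4-cell), 2.65 (8-cell), 2.79 (morula), 2.46 (ICM), 2.51 (TE) and 2.76 (PN5), so the value was highest in CC and lowest in ICM. Gpc6 had 3.6003, 3.39, 3.98, 4.28, 3.97, 3.63, 5.45, 5.98, 4.67 and 3.21 in the same order, highest in ICM.

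Gene starts were almost free of ubiquitous windows. Only 17 of 20807 protein-coding genes (0.0817%) had their annotated start in one, and 185 of 30422 other annotated genes (0.608%) did. The 10 of highest lowest fold were Gm7735, Cntn3, Gm49394, Gm30302, Gm7970, Trim80, Peg3, Usp29, Krt32 and Gm7954. At Cntn3, a contactin gene, the window was soft-masked throughout and its fold ran from 3.28 in PN5 to 5.82 in ICM. At Krt32, a keratin gene, 1.90% of the window was soft-masked and the fold ran from 2.68 in CC to 3.77 at the 4-cell stage. Duxf3, a copy of the Dux gene that switches on 2-cell genes in fertilized embryos, was also among the 17. Its window was at 4.12 (CC), 3.12 (6 hpa), 3.51 (14 hpa), 3.64 (2-cell), 4.83 (4-cell), 2.89 (8-cell), 3.18 (morula), 2.17 (ICM), 2.13 (TE) and 2.27 (PN5). The PN5 value lies below the lower quartile of PN5 folds over the ubiquitous windows (2.93). From signal tracks, the paper describes hardly any H3K9me3 at Dux in fertilized embryos, whereas the deposited PN5 list holds a peak there. A called peak and a signal track are unlike measures, and how reads were split between copies of Dux is not known here.

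Of 46 imprinted genes on a list of well-known names, coding or noncoding, 9 (19.6%, interval 10.7 to 33.2%) had a ubiquitous window in their body, against 4.81% of all protein-coding genes. Within 5 kb, 13 (28.3%) had one, against 6.50% of all protein-coding genes. By windows the share was 0.358% (interval 0.2002 to 0.640%), against 0.260% of the windows in all protein-coding genes, which lies within that interval. The 9 were Gnas, Peg3, Airn, Mest, Zim1, Snrpn, Commd1, Zrsr1 and Igf2r. A start lay in a ubiquitous window for 4 genes of the list, which were Peg3 and Usp29, whose starts face each other in the same window, Zrsr1, and the noncoding Nespas. The share among all genes was 0.0817% for protein-coding and 0.608% for other genes. Snrpn, Commd1, Zrsr1, Igf2r and Nespas were named after their values were seen. The genes overlap or adjoin in pairs (Peg3 with Usp29, Commd1 with Zrsr1, Airn with Igf2r, Gnas with Nespas), so they are not independent of each other.

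The windows at these 9 genes were rich in CpG for the most part and almost free of soft-masked bases. The window at Peg3 and Usp29, chr7:6730001-6731000, was 55.5% GC with 46 CpG and 7.80% soft-masked, and none of its 100-base stretches had another copy. Its fold was 3.14 (CC), 3.33 (6 hpa), 3.49 (14 hpa), 3.73 (2-cell), 3.24 (4-cell), 2.77 (8-cell), 2.98 (morula), 3.70 (ICM), 4.00 (TE) and 2.97 (PN5). The window at Zrsr1, chr11:22972001-22973000, held 73 CpG with 0 soft-masked bases, and its fold ran from 2.26 at 14 hpa to 3.81 at the 4-cell stage. The window in Mest, chr6:30737001-30738000, held 43 CpG, with a fold from 2.92 to 3.63. The window in Snrpn, chr7:60004001-60005000, held 35 CpG, with a fold from 2.58 in CC to 4.27 in TE. In Airn, a window at chr17:12742001-12743000, also in Igf2r, held 51 CpG, with a fold from 2.54 in CC to 4.01 at the 2-cell stage. In Gnas, the windows chr2:174299001-174300000 and chr2:174300001-174301000 held 75 and 66 CpG. The 146 bases between the starts of Peg3 and Usp29 are shown with their 5 CpG in capitals, from a ubiquitous window in which no 100-base stretch has another exact copy. This stretch was chosen after its values were seen.
Between Peg3 and Usp29, chr7:6730432-6730577, plus strand: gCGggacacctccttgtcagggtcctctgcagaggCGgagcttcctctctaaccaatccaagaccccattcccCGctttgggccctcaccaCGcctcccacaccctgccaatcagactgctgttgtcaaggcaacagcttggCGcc

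Among the multigene families, Vmn2r genes, which encode pheromone receptors, had a ubiquitous window in 14 of 119 cases (11.8%, interval 7.14 to 18.8%), led by Vmn2r35 with 12 windows in 34, Vmn2r38 with 6, Vmn2r46 with 5 and Vmn2r60 with 4. Of the windows in Vmn2r genes 1.12% were ubiquitous, against 0.260% of those in all protein-coding genes. Olfr genes, the olfactory receptors, had one in 4 of 1128 cases (0.355%), namely Olfr138, Olfr1152, Olfr1307 and Olfr784, and 0.0665% of their windows were ubiquitous. Vmn1r genes had one in 4 of 208 cases (1.92%, interval 0.750 to 4.84%), led by Vmn1r139 with 3 windows. Of their windows 0.391% were ubiquitous (interval 0.179 to 0.851%). These 2 intervals hold the shares for all protein-coding genes, which are 4.81% of genes and 0.260% of windows. Zfp genes, most of which encode zinc finger proteins, had one in 27 of 388 cases (6.96%, interval 4.83 to 9.94%), with 5 windows each in Zfp986, Zfp600, Zfp277 and Zfp935. Of the windows in Zfp genes 0.463% were ubiquitous (interval 0.360 to 0.596%). Genes of these families lie in arrays of similar copies, and how reads were split between copies is not known here.

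Oocyte and early embryo families were small, and their counts stand beside 4.81% of all protein-coding genes and 0.260% of the windows in them. Obox genes, homeobox genes of the oocyte, had a ubiquitous window in 2 of 7 cases (Obox3 with 6 and Obox1 with 3, partly the same windows), and 2.52% of their windows were ubiquitous (interval 1.22 to 5.11%). Nlrp genes had one in 3 of 17 cases (Nlrp4e with 7, Nlrp9c with 5 and Nlrp1a with 1), with 1.67% of their windows (interval 0.977 to 2.83%), and Duxf in 1 of 1. Zscan4 genes had 0 in 8 and Usp17l genes 0 in 5, with 92.1% and 92.3% of their windows marked in some list, and these counts of 0 allow a share of up to 7.89% and 11.5% of their windows. Pramef and Pramel genes had 0 in 11 (up to 3.85% of windows) and Tdpoz and Tcstv genes 0 in 7 (up to 20.0%). These limits all lie above 0.260%, so the counts of 0 do not set these lists apart from other genes. Defensin genes had 1 in 64 (Defb41), 0.465% of their windows (interval 0.0822 to 2.59%). The clustered protocadherins had 7 in 57, all of them Pcdha genes that share the same 5 windows, 0.942% of the windows of the list (interval 0.403 to 2.19%).

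Germline genes had a ubiquitous window in 2 of 28 cases, Mov10l1 with 4 and Tdrd9 with 3, both of which act in silencing transposons in the testis. This is 7.14% of the list (interval 1.98 to 22.6%), an interval that holds the 4.81% of all protein-coding genes. Hox genes had 0 in 39, with 57.7% of their 286 windows marked in at least 1 list, and a count of 0 allows a share of up to 1.05%. Histone genes had 0 in 67, ribosomal protein genes 0 in 79 and the genes of H3K9 methylation and its readers 0 in 19. In these 3 lists the share of windows marked in at least 1 list was 12.8%, 7.82% and 5.94%, and the counts of 0 allow up to 2.75%, 0.838% and 0.318% of their windows. These limits too, and that of the Hox genes, lie above the 0.260% of all protein-coding genes.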

How the data were processed

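The series holds 41 H3K9me3 precipitates and 33 inputs made by native ChIP from few cells, with MNase and no crosslinking. According to the study's methods and the labels, the authors trimmed reads with Cutadapt (version 1.16), aligned them to mm10 with BWA, merged replicates with SAMtools, removed duplicates with Picard, used the same number of reads per group and called broad peaks over input with MACS2. The peak threshold and the treatment of reads with several positions are not given in the sources used here. The deposited lists give each peak a fold enrichment, which is a ratio over input, and a −log10 q-value. The score, p-value and name columns were not used.

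Peaks of a list were merged, and bases covered were counted in 1000-base windows. Base composition, soft-masking and tRNA genes came from GRCm38.p6 (RefSeq), and genes from GENCODE M21. A gene held a window when the window's midpoint was in its body. A word had to lie within a window, and words with fewer than 12 different 3-base words were left out. Copies were counted for 10 adjacent 100-base stretches per window on both strands. Of windows marked in 1 to 9 lists every 25th was used for this, and of unmarked windows every 100th. Python 3.11.15, numpy 2.4.6, scipy 1.17.1 and matplotlib 3.10.9 were used. The count of covered bases, the fold average and the rule for all 10 lists were tested on simulated peaks. The searches for words, primer sites and copies were not tested in this way.

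The windows and gene lists were chosen with earlier results of these data known. Regions named were the 5 longest runs and the 5 windows of highest lowest fold, at most 1 per run. Genes named were the 12 with most windows, the 10 whose start lay in a window of highest lowest fold, and up to 5 per list. Exceptions are stated, and 1 gene and 2 sequences that these rules select are not reported here. A share of 0 is given with the share that 3 windows would be, or with its interval. Since replicates were pooled before peaks were called, no test between groups could be run. Alternatives were other covers, shifted windows, a stricter q-value, lists trimmed to equal length, windows without unassembled bases, each list left out, other comparison windows, other annotation and a gap inside runs. Chromosomes X and Y stand outside the main count.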

Additional observations from a re-analysis of the deposited data

Results flagged for a closer look

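The sex chromosomes were outside the autosomal count and held windows marked in all 10 lists as well. Chromosome X had 1376 such windows, 0.805% of its windows (Wilson 95% interval 0.763 to 0.848%), with a mean GC of 49.1% and 85.1% soft-masked. Chromosome Y had 70, or 0.0763% (interval 0.0604 to 0.0964%), with 91.1% soft-masked. Both are listed because no comparison above uses these chromosomes and the counts exceed 3 windows. The donor cumulus cells came from females, so neither they nor the cloned embryos made from them carry a Y chromosome. Peaks placed on chromosome Y in their lists therefore cannot come from a Y chromosome. Where those reads came from was not tested. Sex of the fertilized zygotes was not used here.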

How the results depend on the processing

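No paired analysis was possible because the replicates of each group were pooled before peaks were called. Of 85 alternative values, 65 stayed within the limit set for their kind. The limit was a fixed factor for counts and the counting interval for the shares in genes and in runs. For the GC difference and the soft-masked share it was the SD over autosomes. Only the GC difference could change sign, and it did not. With 250 bases covered, 26008 windows were ubiquitous, 76.9% soft-masked, 19.1% in protein-coding genes and 47.3% in runs of at least 3. With all 1000 bases covered, these were 5271 windows, 88.2%, 17.5% and 29.98%. The share in runs was 36.7% with shifted windows, 41.03% with −log10 q of at least 2, 40.4% with trimmed lists and 44.96% with a gap of 1 window. The GC difference was 6.59 points against all other windows and 0.910 against windows in exactly 9 lists. Counting noncoding genes too, 26.4% lay in genes. Within 5 kb, 161 in place of 74 of the 2298 genes of the lists held a window. Over all protein-coding genes, 6.50% held one within 5 kb and 4.81% in the body. Leaving out 1 list at a time gave 14259 (14 hpa) to 20250 (PN5) windows, a GC difference of 4.03 to 4.75 points, 78.7% to 81.6% soft-masked, 18.1% to 18.7% in genes and 34.96% to 42.97% in runs. The causes were not tested.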
